A study of Homo sapiens with 4 samples.

Results

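The silencing machinery of microRNAs was described in naive NB4 cells, an established cell line of acute promyelocytic leukemia (APL), and in a line derived from it that is resistant to arsenic trioxide (ATO), a drug used against APL. It comprised 10 genes, taken by name from the gene names of the array design: the GW182 genes TNRC6A, TNRC6B and TNRC6C, the Argonaute genes EIF2C1, EIF2C2, EIF2C3 and EIF2C4 (current names AGO1 to AGO4), and DICER1, DGCR8 and XPO5. They had 19 probes of the 41000 on the array, and all 19 are given here. RNA of 2 flasks of each line was labelled with Cy3 and hybridised to 4 Agilent arrays of the whole human genome, each flask to an array of its own. Both lines grew in RPMI medium with serum, and the resistant cells, labelled NB4-VM-AsR1, had been kept off ATO for a week. The methods call the resistant line a clone and write its name as NB4-EV-AsR1. Both names are taken for the same clone, so the flasks measure the spread of culture and array and not that between resistant clones. The 4 arrays lay on 1 slide with the naive flasks first and the resistant flasks last, and position and line cannot be told apart.

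A microRNA is cut from its primary transcript in the nucleus by DROSHA with its partner DGCR8, carried to the cytoplasm by exportin-5 (XPO5) and trimmed by DICER1. An Argonaute protein then holds the mature strand and pairs it with target messages. GW182 proteins, made from the TNRC6 genes, bind Argonaute and recruit the deadenylases that shorten the tail of the target, which is followed by decapping and decay from the 5′ end. The array measures the messages of these proteins and not the microRNAs.

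The difference of TNRC6C rested on its 2 probes, and a probe of the opposite strand just beyond them was the nearest tested neighbour. The first 30 of the 60 bases of each are shown so that they can be located. All 3 were given positions on chromosome 17 of hg19 in the deposited files, and no annotation of that build was used here to place them in an exon or UTR.
TNRC6C probe A_23_P392501, listed under NM_001142640, chr17:76102231-76102290, plus strand: ggttgtgactgcttttgggggagcctgggg
TNRC6C probe A_23_P15765, listed under NM_018996, chr17:76099515-76099574, plus strand: gacattgtgtttgcaacatgggcctcttat
Opposite-strand probe A_24_P857624, listed under ENST00000374976, chr17:76103646-76103705, minus strand: taaagcaaaacaatggaaaatctgagttca
The 2 TNRC6C probes lay 2.72 kb apart. Of their 60 bases, 55.0% were G or C in the first and 45.0% in the second, against 41.7% in the opposite-strand probe.

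TNRC6C was lower in both resistant flasks at both of its probes. All levels below are log2 processed signals minus the 75th percentile of the array, so that 0 is that percentile, and they are compared between flasks within a probe only. At A_23_P392501 the level was 0.92 and 1.57 in the naive flasks and -4.82 and -4.71 in the resistant flasks. The signal was well above background on all 4 arrays, and the nearest flasks of the lines were -5.63 apart, where the naive pair differed by 0.66 and the resistant pair by 0.11. The resistant line was lower by 64.5-fold, a difference of -6.01 on the log2 scale (SE 0.30 from limma, 2 flasks per line). Before scaling, the intensities were 2036 and 2675 in the naive flasks and 37.1 and 32.1 in the resistant flasks.

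At the dimmer probe A_23_P15765 the naive flasks had levels of -6.11 and -4.22 and the resistant flasks -7.76 and -7.89. The signal was well above background in both naive flasks and in neither resistant flask. The measured difference was -2.66 (SE 0.62), and with the detection limit of each array in place of the dim signals the resistant line was at least 2.48-fold lower. Naive flasks differed from each other by 1.89 at this probe. The genes were selected on the difference of TNRC6C between these same lines, so the values of the 10 genes are a description.

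**Figure D1:**
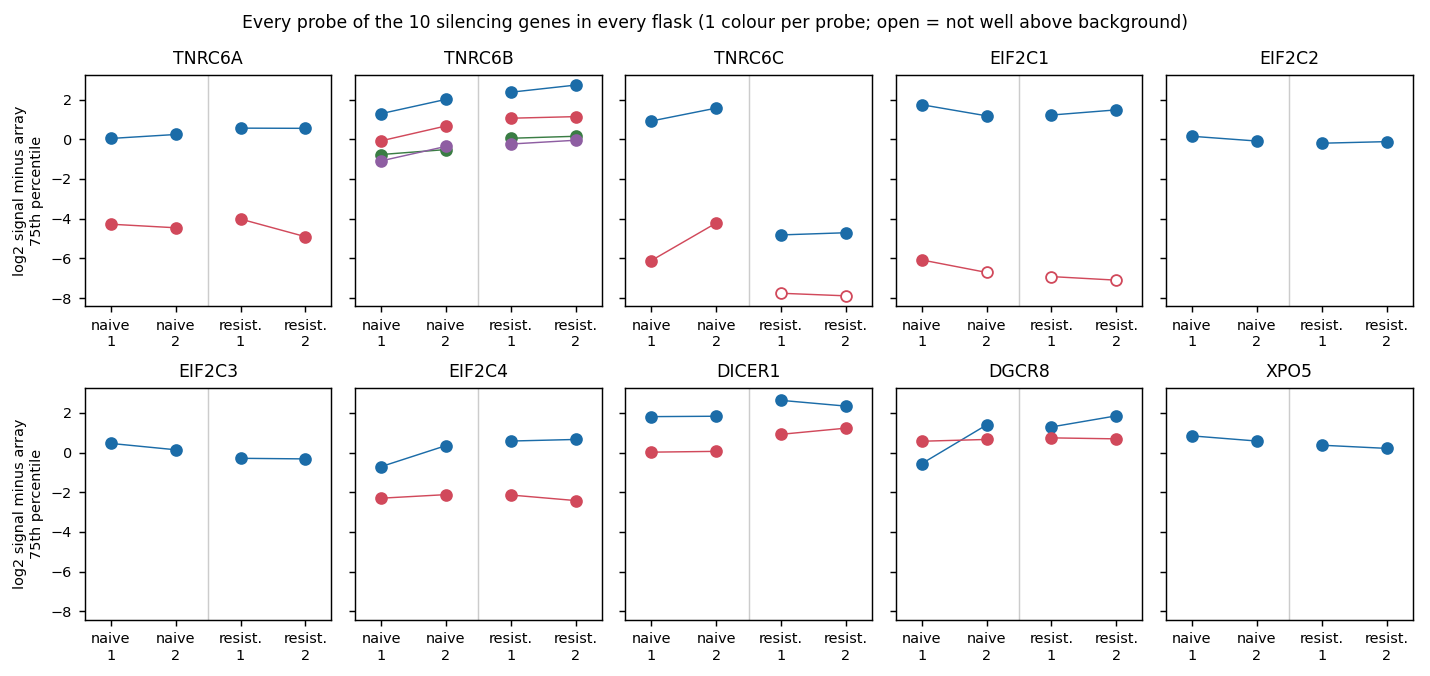
Level of every probe of the 10 genes in every flask. The x axis gives the flask, the y axis the log2 processed signal minus the 75th percentile of the array, each colour is a probe, filled points are well above background and lines join flasks of 1 cell line. Both TNRC6C probes are lower in the resistant flasks, while the 4 TNRC6B probes are higher in them.

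The other GW182 genes were not lower at their brightest probes. All 4 probes of TNRC6B had higher levels in both resistant flasks than in either naive flask, with differences of 0.58 to 0.90. At its brightest probe, A_23_P6481, TNRC6B had 1.29 and 2.01 in the naive flasks and 2.37 and 2.73 in the resistant flasks, a difference of 0.90 (SE 0.33). The gap between the nearest flasks of the lines was 0.36 there, less than the 0.72 between the naive flasks. At A_32_P6415 the levels of TNRC6B were -0.08 and 0.67 against 1.06 and 1.14, at A_23_P6490 they were -0.77 and -0.52 against 0.05 and 0.15, and at A_24_P786172 they were -1.09 and -0.36 against -0.24 and -0.05, naive flasks first. These probes share 1 gene and the same RNA, so they are not replicates. TNRC6A had 0.04 and 0.24 in the naive flasks and 0.56 and 0.55 in the resistant flasks at its brighter probe, a difference of 0.41 (SE 0.22). Its dimmer probe overlapped between the lines, with -4.28 and -4.46 against -4.02 and -4.91.

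Argonaute genes, whose proteins hold the microRNA, differed less between the lines than TNRC6C and in both directions. EIF2C1 overlapped between the lines, with 1.74 and 1.18 in the naive flasks and 1.22 and 1.48 in the resistant flasks, a difference of -0.11 (SE 0.29). The difference of EIF2C1 turned to 0.17 without the first naive flask and to 0.02 without the first resistant flask. A dim EIF2C1 probe was well above background on the first naive array alone and was not tested. EIF2C2, which encodes the Argonaute that can cut its target, had 0.15 and -0.09 in the naive flasks and -0.20 and -0.12 in the resistant flasks. The nearest flasks of the lines were -0.03 apart, and the difference was -0.19 (SE 0.23).

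EIF2C3 had 0.46 and 0.14 in the naive flasks and -0.29 and -0.32 in the resistant flasks, a difference of -0.61 (SE 0.24). EIF2C4 gave different readings at different probes. Its brighter probe had -0.71 and 0.35 in the naive flasks and 0.58 and 0.66 in the resistant flasks, a difference of 0.80 (SE 0.39) that fell to 0.27 without the first naive flask. The other EIF2C4 probe had -2.30 and -2.12 against -2.14 and -2.42 and overlapped. A further probe, which the array lists under ENST00000397882 and describes as Argonaute 4, was no member by its gene name and had -5.64 and -5.19 against -4.52 and -5.32.

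Among the genes of processing and export, DICER1 was higher in the resistant line at both probes. At its brighter probe DICER1 had 1.81 and 1.83 in the naive flasks and 2.63 and 2.34 in the resistant flasks, a difference of 0.66 (SE 0.23). The second DICER1 probe had 0.02 and 0.06 against 0.92 and 1.23, a difference of 1.04 (SE 0.24). The naive flasks lay within 0.04 of each other at both DICER1 probes. XPO5 had 0.84 and 0.58 in the naive flasks and 0.37 and 0.21 in the resistant flasks, a difference of -0.42 (SE 0.23).

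DGCR8 rested on 1 flask. At its brighter probe DGCR8 had -0.56 and 1.39 in the naive flasks and 1.29 and 1.85 in the resistant flasks, so that the lines overlapped, and the difference of 1.16 (SE 0.66) fell to 0.18 without the first naive flask and was 2.13 without the second. Its other probe had 0.57 and 0.66 against 0.74 and 0.69, a difference of 0.10 (SE 0.22). Over all probes the SD of the difference between flasks was 0.714 for the naive and 0.371 for the resistant line, and at the brighter DGCR8 probe the naive flasks were 1.95 apart.

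**Figure D2:**
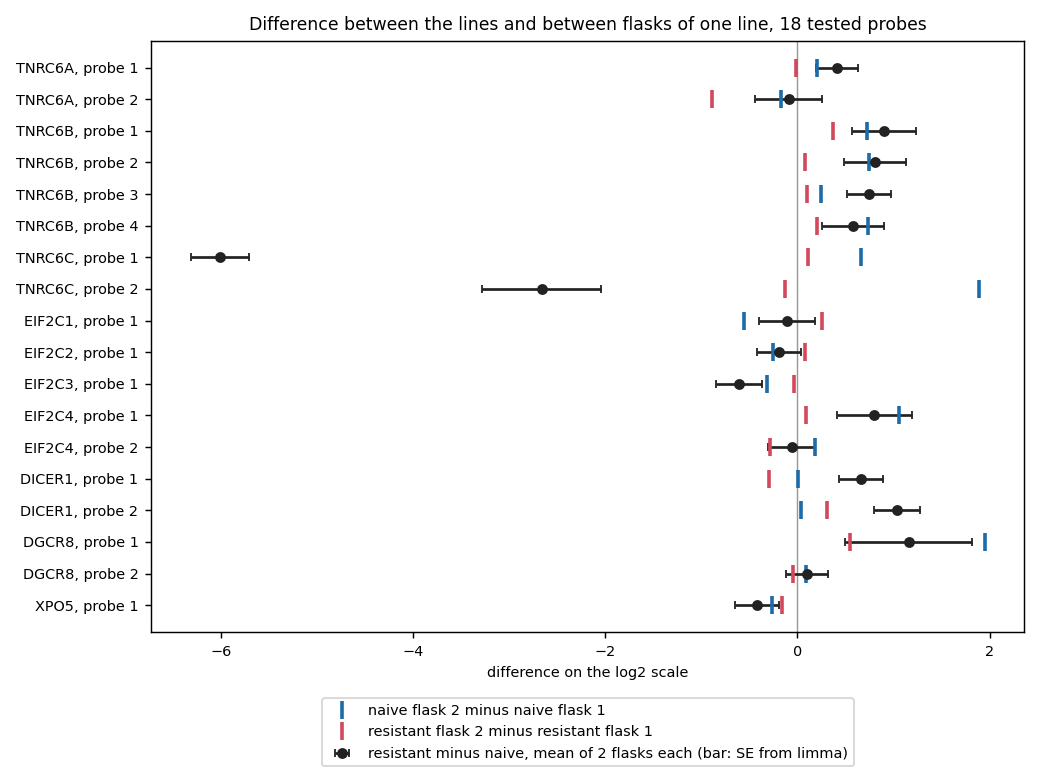
Difference between the lines at the 18 tested probes of the 10 genes. The x axis is on the log2 scale, black points are the resistant mean minus the naive mean of 2 flasks each with the SE from limma, and blue and red ticks are the second flask minus the first of the naive and of the resistant line. The brighter TNRC6C probe, at -6.01, lies far from the other probes, whereas the brighter DGCR8 probe differs by more between the naive flasks than between the lines.

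Of the 19 probes 18 were tested, that is, both arrays of 1 line or of both lines had a signal well above background. A probe was called at a Benjamini-Hochberg adjusted p below 0.05 in limma and a difference of at least 2-fold, which 5.27% of all 28221 tested probes met (2.30% higher and 2.97% lower in the resistant line). Among the 18 tested probes 1 was called, the brighter TNRC6C probe, and as the genes were chosen with this comparison known nothing is read from that count. The flasks of the lines did not overlap at 9 probes with higher and 5 with lower levels in the resistant line, against 53.0% of all tested probes (24.7% higher and 28.2% lower). The median difference of the 18 probes was 0.25, and that of all tested probes was -0.02. With 2 flasks per line the smallest p of an exact two-sided permutation test of 1 probe is 0.333, so that calls rest on the spread pooled over probes. The normexp background correction was run with an offset of 50 added to each intensity, which shrinks log2 differences of dim signals. With it limma called 0 probes of the array (929 had an unadjusted p below 0.05), and the difference of TNRC6C was -3.68. It was -4.49 when bright local backgrounds were first reset, at the same offset, a setting added after the data were known. With that reset limma called 1189 probes, TNRC6C among them. Leaving out the second naive flask, limma called 4 of the 10 genes: TNRC6C and, as higher, TNRC6B, EIF2C4 and DGCR8. In that setting 16.1% of all probes were called, 8.90% higher and 7.20% lower.

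The level of TNRC6C was then set beside the probes around it on chromosome 17. Within 500 kb of its probes the files placed 24 other probes, all of them beyond the brighter TNRC6C probe at higher coordinates, and the nearest probe on the other side lay 539 kb away. Of the 24, 19 were tested and limma called 0, where it called 5.27% of all tested probes. An unadjusted p below 0.05 was found for 3 of them, where 19.1% of all tested probes had one. Their differences ran from -0.51 to 1.76 with a median of 0.13. In 5 the flasks did not overlap and were higher in the resistant line, and in 2 they were lower. Of all tested probes 53.0% did not overlap (24.7% higher and 28.2% lower).

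The nearest tested probe was the minus-strand probe A_24_P857624 of ENST00000374976, 1.42 kb away, and it had the largest difference of the 19. Its level was -3.44 and -1.96 in the naive flasks and -1.11 and -0.78 in the resistant flasks, a difference of 1.76 (SE 0.51, limma adjusted p = 0.155). The difference at that probe was 1.01 without the first naive flask and 2.50 without the second. TMC6 and TMC8, adjacent genes of transmembrane proteins, were next along the chromosome. TMC6 had a difference of 0.46 (limma adjusted p = 0.696), and the 3 probes of TMC8 had 0.70, 0.13 and 1.37 (limma adjusted p = 0.496, 0.856 and 0.205). Without the second naive flask TMC6 had 1.26 and the TMC8 probes had 1.42, 0.46 and 2.03. Without the first naive flask TMC6 turned to -0.34 and the TMC8 probes had -0.02, -0.20 and 0.71. TK1, the thymidine kinase of dividing cells, had 5.13 and 3.98 in the naive flasks and 5.75 and 6.03 in the resistant flasks. Its difference was 1.33 (SE 0.42, limma adjusted p = 0.18), and it was 1.91 without the first naive flask and 0.76 without the second.

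Just before TK1 on the chromosome, the 2 probes of SYNGR2 had differences of 0.03 and 0.27. BG029389, also there, had 0.96, at a dim probe that was well above background on only 1 naive array. Its difference was 1.55 without the first naive flask and 0.36 without the second. Beyond TK1, AFMID had 0.09, EPR1 had -0.16, and BIRC5, the mitotic regulator survivin, had 0.31. LOC100128942 had -0.18. SOCS3, an inhibitor of cytokine signalling, had -0.42 and -0.35 at its probes, and PGS1 had -0.36 and -0.51. With all flasks none of these genes was called by limma, and no tested neighbour had a difference near that of TNRC6C.

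**Figure D3:**
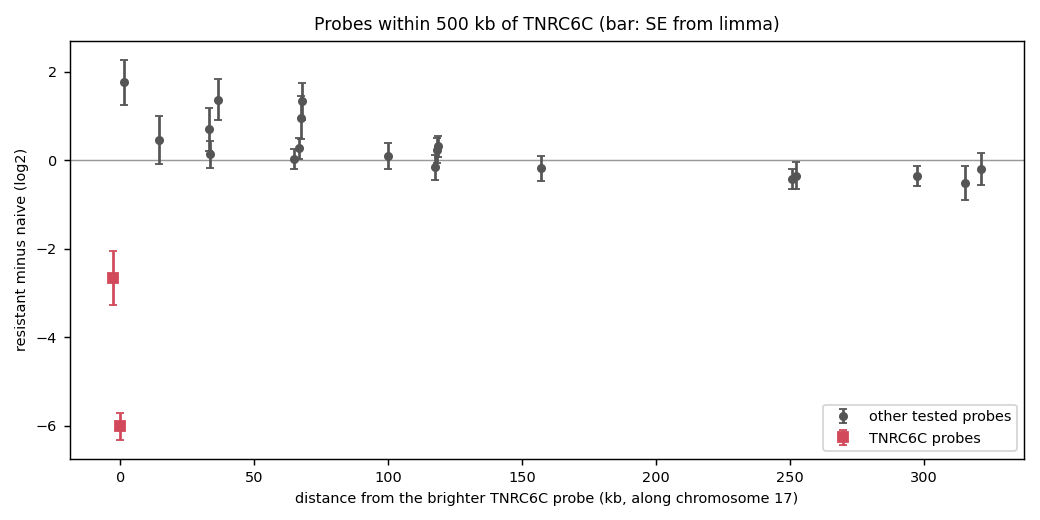
Difference between the lines along chromosome 17 around TNRC6C. The x axis is the distance in kb from the brighter TNRC6C probe, the y axis the resistant minus the naive mean on the log2 scale, grey points are the 19 tested neighbours, red squares the 2 TNRC6C probes and bars the SE from limma. The TNRC6C probes lie at -6.01 and -2.66, and the neighbours between -0.51 and 1.76.

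Other genes of microRNA silencing were read from 6 lists made by function, with 87 genes of which 84 were on the array and 80 were tested. By their brightest probes limma called 0 as higher and 1 as lower in the resistant line, beside 2.30% and 2.97% of all probes, and 9 had an unadjusted p below 0.05, beside 19.1% of all probes. The median difference was 0.10. In 6 of the 80 genes the brightest probe was saturated on at least 1 array, which can cap a difference. In 6, some of them the same, it lay on another chromosome than the gene. The 1 called gene was H19, an imprinted noncoding RNA that is the host transcript of miR-675. H19 had 0.44 and 0.46 in the naive flasks and -1.50 and -2.35 in the resistant flasks, a difference of -2.38 (SE 0.34, limma adjusted p = 0.021) or 5.21-fold. Both resistant flasks were far below the naive flasks, and the resistant flasks differed by less than the lines did. The call of H19 was lost without the second resistant flask (-1.96, limma adjusted p = 0.105) and with the normexp correction (-1.82, limma adjusted p = 0.864). Its probe lies at chr11:2016674-2016733 of hg19, minus strand.

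The mature strands of miR-675, which these arrays did not measure, are printed from RefSeq with the seed, bases 2 to 8, in capitals, because they are the microRNAs cut from the H19 transcript. Their positions are on the minus strand of GRCh38.p14.
hsa-miR-675-5p, chr11:1996800-1996822: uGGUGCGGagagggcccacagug
hsa-miR-675-3p, chr11:1996768-1996787: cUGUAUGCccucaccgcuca

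The remaining 6 host transcripts of microRNAs on the array were not called, and the median of the list of 7 was -0.29. MCM7, a replication helicase gene that hosts the miR-106b cluster, had the smallest difference of that list at 0.13, at a probe that was saturated on all 4 arrays, which caps any difference. In the biogenesis list 21 genes were tested, with 0 called and a median of 0.03. TUT4, which adds uridines to precursors of microRNAs, had the largest difference of them at brightest probes. Its levels were 0.40 and 0.02 in the naive flasks and 1.23 and 1.53 in the resistant flasks (1.17, SE 0.26, limma adjusted p = 0.0814). Dimmer probes of LIN28B and KHSRP had larger differences, 1.53 and -1.29 (limma adjusted p = 0.0648 and 0.232). The difference of TUT4 was 1.36 without the first naive flask and 0.97 without the second. RAN, the GTPase that XPO5 needs for export, had the smallest at 0.01, but at a probe that was saturated on all 4 arrays, which caps any difference, and that the files place on another chromosome than the gene. The RAN probe on its own chromosome was not saturated and had 1.27 and 1.17 in the naive flasks and 1.01 and 0.81 in the resistant flasks, a difference of -0.31 (limma adjusted p = 0.518), and the remaining probe had -0.25.

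Partners of the silencing complex numbered 17 tested genes with a median of 0.12 and 0 called. The largest difference was that of AJUBA, a LIM protein that binds Argonaute, with -1.94 and -1.76 in the naive flasks and -0.88 and -0.36 in the resistant flasks (1.23, SE 0.27, limma adjusted p = 0.0784). The difference of AJUBA was 1.14 without the first naive flask and 1.32 without the second. P4HA1, a prolyl hydroxylase subunit, had the smallest at -0.02. Deadenylation genes, which act after GW182 is recruited, had 0 of 15 called and a median of 0.16. At brightest probes the largest of them was CNOT6L, a catalytic deadenylase, at 0.50. The smallest was TOB2 at 0.01, from a probe placed on another chromosome than the gene. Dimmer probes of CNOT9 and CNOT1 had -1.26 and -0.77 (limma adjusted p = 0.0939 and 0.237). Of the 18 tested genes of decapping and 5′ decay 0 were called, the median was 0.18, and the differences ran from -0.67 for EDC4, a scaffold of decapping, to 0.61, with LSM4 the smallest at 0.01. PIWI genes were mostly not well above background. PIWIL4 had 0.10 and HENMT1, which methylates small RNAs, had 0.15. In 36 of the 80 genes more than 1 probe was tested, and in 12 of these the probes differed in sign.

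**Figure D4:**
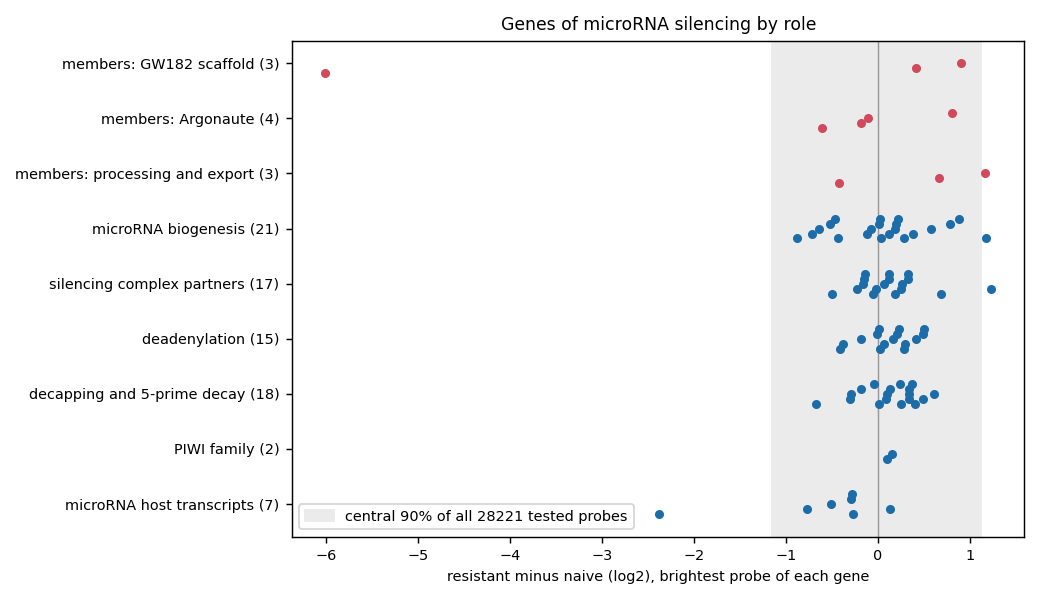
Difference between the lines for the 10 genes (red) and the other genes of microRNA silencing (blue) by role, with the number of genes tested in parentheses. The x axis is the resistant minus the naive mean on the log2 scale at the brightest probe of each gene, and the grey band holds the central 90% of all tested probes, -1.15 to 1.12. TNRC6C at -6.01 and H19 at -2.38 lie below the band.

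The pattern of TNRC6C over the 4 flasks was shared by other genes. Likeness was measured as the Euclidean distance between the 4 values of each tested probe, centred on their mean, and those of the brighter TNRC6C probe. The 5 nearest named genes were ZNF334, CCRK, SLC37A3, KRT18 and HYI. Of these KRT18, at a distance of 0.30, and HYI, at 0.32, were well above background on all arrays, as TNRC6C was. KRT18, a keratin, had 0.69 and 1.04 in the naive flasks and -5.07 and -4.84 in the resistant flasks. HYI had -0.09 and 0.28 against -5.77 and -5.58. In the resistant flasks ZNF334, CCRK and SLC37A3 were not well above background, so that their distances and order rest on signals at background. The lower bound of the difference was at least 17.2-fold for ZNF334, at least 14.4-fold for CCRK and at least 13.7-fold for SLC37A3. With the normexp correction, whose offset of 50 shrinks differences of dim signals, the log2 differences were -1.16, -0.96 and -0.92 in that order. Those of KRT18 and HYI were -3.32 and -2.79. None of the 5 was called with that correction, but neither was any other probe of the array. Without it the limma adjusted p ran from 0.00083 for KRT18 to 0.00144 for SLC37A3. The 5 were chosen for likeness to TNRC6C, so these values are no test. With 4 values per probe such nearness describes these flasks.

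The cells were checked against markers, in which fewer cells of a type and less RNA per cell cannot be told apart. Of 8 probes of promyelocyte genes 7 were well above background in both naive and 8 in both resistant flasks, with MPO saturated on all 4 arrays and CTSG on 2. Their summed signal was 141 and 128 times the 75th percentile of the array in the naive flasks and 160 and 191 times in the resistant flasks, sums that the saturated probes cap. ELANE and AZU1, 2 proteins of the azurophil granule, were called higher in the resistant line by limma (2.49, adjusted p = 0.0169 and 1.17, adjusted p = 0.0472). Of all tested probes 2.30% were called higher. ELANE was well above background in only 1 naive flask, with -5.74 and -6.56 against -3.66 and -3.66, so the size of its difference is uncertain. The other promyelocyte probes were not called. PRTN3, with 2.39, and CTSG, with 0.78, had higher levels in both resistant flasks than in either naive flask. CEBPE, with -0.62, and both CD33 probes, with -0.28 and -0.29, had lower levels in both resistant flasks than in either naive flask. MPO, with 0.06, overlapped. Lower with TNRC6C was the sum of 4 probes of T cell genes, which was 1.73 and 2.38 times the 75th percentile in the naive flasks and 0.134 and 0.17 times in the resistant flasks. All 4 were well above background in both naive flasks and 3 in both resistant flasks. That sum in the naive flasks was mostly CD3D, a subunit of the T cell receptor complex, with log2 levels of 0.70 and 1.16 there and at least 170-fold less in the resistant flasks, where it was not well above background (limma adjusted p = 0.000755). Without CD3D the sum was 0.109 and 0.137 times the 75th percentile in the naive flasks and 0.129 and 0.163 times in the resistant flasks, which overlap. CD2 had -5.11 and -4.90 against -4.29 and -3.67, higher in both resistant flasks (1.02, limma adjusted p = 0.151), the CD3E probes had -0.43 and -0.01, and none of these was called. The part of T cell genes in the TNRC6C difference was not tested. In both lines 2 of 3 B cell probes, 1 of 5 erythroid, 1 of 2 monocyte and 0 of 6 stroma probes were well above background on both arrays.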

How the data were processed

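The authors read the scanned arrays with Agilent Feature Extraction 10.5.1.1. In its deposited output the processed signal is a background-subtracted intensity per spot. The mean and local background signals, deposited as intensity too, served an alternative. A second deposited table holds log2 values that the authors made in GeneSpring GX by a 75th percentile shift.

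From the processed signal of 45015 spots (43376 not controls, 41000 probes), outlier spots were left out and log2 was taken. Spots of a probe were then averaged, and the 75th percentile of these probe values was subtracted on each array. These values and the deposited table had r of at least 0.9998 on each array. Between 27922 and 28244 probes per array were well above background and 457 to 566 saturated. Arrays have no read depth, and their number limits the precision.

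Lines were compared in R 4.3.3 with lmFit and eBayes of limma 3.58.1, without a block. Over probes, the deviations of same-numbered flasks from their line means correlated at 0.119, which did not show that numbers pair them. The fit was tested on simulated data drawn with the same spread in both lines. That test thus does not cover their unequal spread between flasks (SD 0.714 naive, 0.371 resistant). A gene is given by its brightest probe. The 10 genes and the lists were chosen with earlier results of these data known. Named genes were every probe of the 10, called genes of the lists and, by role, those with the largest and smallest difference in size, neighbours within 500 kb, and the 5 genes most like TNRC6C. Alternatives were another background correction, normalization, filter, variance model, t-test, the deposited table, a replicate block, the mean over probes, and each flask left out. Sequences and current gene names came from RefSeq (GRCh38.p14), and probe positions are on hg19.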

Additional observations from a re-analysis of the deposited data

How the results depend on the processing

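Of 170 values of the 10 genes under 17 alternatives each, 163 moved by less than the SD between flasks. TNRC6C stayed lower in all 17, from -6.34 to -3.68 on the log2 scale, with -4.34 as the mean over its probes. EIF2C1 had the other sign in 2. Changes of filter, test, variance model or block cannot move the difference of a probe, and leaving out a flask moves it by only part of the difference between flasks. The count of 163 was thus largely set in advance and does not measure robustness. The number of probes called was 1487, and 760 when all 4 arrays had to be well above background. It was 0 with the normexp correction, which moved the median of all probes to 0.128. After the reset of bright local backgrounds normexp gave 1189. By the methods' t-test the number was 0 once adjusted by Benjamini-Hochberg (unadjusted, 4138 were below 0.05 and 1833 of these 2-fold or more apart). Leaving out 1 flask gave 728 to 4538 probes, 0 to 5 genes of the pathway lists and 1 to 4 of the 10 genes. A lone flask was then taken to vary like the other line. Calls were 3731 and 4538 without the first and second naive flask, and 743 and 728 without the first and second resistant flask. The 1 called gene of the lists became 0 with normexp, with no filter on dim probes (H19 at an adjusted p of 0.0537) and by the methods' t-test after adjustment, 3 by that test unadjusted, and 2 with an intensity trend or with normexp after the reset of bright local backgrounds. Of the 10 genes 0 were called with normexp and by the adjusted t-test. With the replicate number as a block 1375 probes, 1 gene of the lists and 1 of the 10 were called, so it changed no call among these genes. The numbers were not taken to pair the flasks. The slide was not run as a block because there was 1.

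Some values that were not called turned sign, and the cause was not tested. With normexp PIWIL4 was -0.15, TOB2 -0.15, LSM4 -0.13, RAN -0.02, MCM7 -0.02, P4HA1 0.12, the dimmer SYNGR2 probe -0.12, EPR1 0.24, LOC100128942 0.02 and the SOCS3 probes 0.21 and 0.22. With the reset PIWIL4 was -0.09, TOB2 -0.12, LSM4 -0.05, P4HA1 0.06, SYNGR2 -0.14 and EPR1 0.02. With quantile normalization MCM7 was -0.07 and P4HA1 0.01, which was 0.02 with a shift to the median. As means over probes RAN was -0.18 and AFMID -0.08. With 1 flask left out at a time PIWIL4 ran from -0.02 to 0.21, TOB2 from -0.09 to 0.10, LSM4 from -0.16 to 0.18, RAN from -0.12 to 0.13, MCM7 from -0.05 to 0.31, P4HA1 from -0.30 to 0.26, TMC6 from -0.34 to 1.26, 2 TMC8 probes from -0.02 to 1.42 and from -0.20 to 0.46, SYNGR2 from -0.04 to 0.10, AFMID from -0.15 to 0.32, EPR1 from -0.39 to 0.08 and LOC100128942 from -0.48 to 0.11.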
